A study of Mus musculus with 12 samples.

Results

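CD11b-high liver macrophages with low Ly6C and F4/80-high Kupffer cells without Tim4, both sorted from livers of mice on the NASH diet, were compared by their lists of open chromatin regions. NASH is nonalcoholic steatohepatitis, a fatty liver disease with inflammation and fibrosis, modelled here by a diet. The Ly6C-low cells (Ly6CLo-RM, 2 libraries) and the Tim4-negative cells (KN-RM, 2 libraries) each had 1 peak list made by the authors from both libraries. The Ly6CLo-RM list held 54621 peaks and the KN-RM list 34293, so both were cut to the 34293 best-scored peaks, which gave 68586 regions of the 334073 peaks in all 6 lists. The cut removed 20328 Ly6CLo-RM peaks with scores of 32 or less and left the KN-RM list whole.

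All animals were C57BL/6J mice of unstated age. The other 4 groups, of 2 libraries each, served to place the regions: liver macrophages sorted as CD11b-high with high Ly6C (Ly6CHi-RM) and monocytes of the blood with high Ly6C (Blood-Ly6CHi-NASH), both on the NASH diet, and Tim4-positive F4/80-high Kupffer cells on the NASH diet (KC-N) and on the control diet (KC-H). Every group is defined by surface proteins in a sort, not by the origin of the cells, and all liver cells were digested with flavopiridol present. ATAC-seq reads open chromatin as DNA that a transposase can cut. The libraries are bulk, so a region open in fewer cells and a region less open in each cell cannot be told apart. With 1 list per group there was no value per library. No difference below has a test, a p-value or a replicate error, and the 95% Wilson intervals cover counting error only.

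Kupffer cells are the resident macrophages of the liver sinusoids, where they take up dead cells, old erythrocytes and bacteria. Their enhancers are known to depend on the nuclear receptor LXR-alpha, encoded by Nr1h3, on BMP and TGF-beta signals through SMAD factors, and on Notch signals through Rbpj. LXR is activated by oxidized sterols and induces genes of cholesterol export such as Abca1. Monocytes enter the diseased liver from the blood, and macrophages derived from them can take on parts of the Kupffer cell programme.

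A list-specific region is here a peak in the better-scored 17146 of one equal-length list that had no peak centre of the other equal-length list within 1000 bp. Most such regions lay far from gene starts, but 54 genes had one of Ly6CLo-RM over the 300 bases around a start and 36 genes had one of KN-RM. The stretches of those regions that lie before the gene start are shown for the gene-list members, named genes and best-scored regions with at least 60 such bases, because these are promoters that 1 of the 2 equal-length lists left without a peak. Sequences are from RefSeq, GRCm38.p6, on the strand of the gene. Capitals mark matches to 21 of the 25 searched motifs, leaving out 4 named with the motifs below, and a stretch with no capitals held none of the 21.
Jag1: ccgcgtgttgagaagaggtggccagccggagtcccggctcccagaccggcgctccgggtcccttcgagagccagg
H2-DMb2: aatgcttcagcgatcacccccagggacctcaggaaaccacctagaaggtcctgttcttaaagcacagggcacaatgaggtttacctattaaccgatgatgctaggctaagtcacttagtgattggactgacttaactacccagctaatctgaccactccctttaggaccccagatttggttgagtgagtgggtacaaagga
Elovl7: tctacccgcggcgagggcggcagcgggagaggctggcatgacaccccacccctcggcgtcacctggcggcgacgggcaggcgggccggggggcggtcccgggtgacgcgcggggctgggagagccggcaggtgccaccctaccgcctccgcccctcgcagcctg
Mertk: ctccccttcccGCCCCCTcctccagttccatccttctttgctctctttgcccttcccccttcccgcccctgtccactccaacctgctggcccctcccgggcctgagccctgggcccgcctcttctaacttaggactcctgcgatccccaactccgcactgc
Cd5l: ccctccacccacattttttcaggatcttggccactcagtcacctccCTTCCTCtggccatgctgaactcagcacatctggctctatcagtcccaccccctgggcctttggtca
Trem2: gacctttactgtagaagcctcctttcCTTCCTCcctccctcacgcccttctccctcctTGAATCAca
Cd38: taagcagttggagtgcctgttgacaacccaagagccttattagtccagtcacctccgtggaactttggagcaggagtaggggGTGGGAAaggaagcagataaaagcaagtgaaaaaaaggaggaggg
Mmp12: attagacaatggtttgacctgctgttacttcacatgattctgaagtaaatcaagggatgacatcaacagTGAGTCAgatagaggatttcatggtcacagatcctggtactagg
Ccl12: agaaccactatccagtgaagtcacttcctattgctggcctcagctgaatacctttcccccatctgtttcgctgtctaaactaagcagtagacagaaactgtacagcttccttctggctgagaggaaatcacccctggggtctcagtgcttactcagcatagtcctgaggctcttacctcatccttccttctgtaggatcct
Ctla2b: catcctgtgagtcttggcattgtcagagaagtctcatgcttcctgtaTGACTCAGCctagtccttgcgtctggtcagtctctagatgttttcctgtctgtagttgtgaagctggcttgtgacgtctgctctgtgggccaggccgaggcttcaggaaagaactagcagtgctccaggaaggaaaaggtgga
1700003F12Rik: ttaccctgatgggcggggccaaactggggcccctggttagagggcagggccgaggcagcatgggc

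The first 3 stretches belong to Ly6CLo-RM regions. Jag1, which encodes a Notch ligand, is shown at chr2:137116696-137116770 on the minus strand, H2-DMb2, an MHC class II chaperone gene, at chr17:34145039-34145239 on the plus strand, and Elovl7, a fatty acid elongase gene, at chr13:108214240-108214403 on the plus strand. The other 8 belong to KN-RM regions. Mertk, which encodes a receptor for dead cell uptake, is at chr2:128698754-128698914, Cd5l, which encodes a secreted macrophage protein, at chr3:87357768-87357880, and Trem2, a lipid-sensing receptor gene, at chr17:48346334-48346400, all on the plus strand. Cd38, an NAD-degrading ectoenzyme gene, is at chr5:43868682-43868808, Mmp12, a macrophage elastase gene, at chr9:7347261-7347373, and Ccl12, a chemokine gene, at chr11:82101595-82101795, also on the plus strand. Ctla2b is at chr13:60897448-60897637 on the minus strand and 1700003F12Rik at chr2:154548839-154548903 on the plus strand.

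The capitals in Cd5l and Trem2 are the PU.1 letters GAGGAAG read on the opposite strand, found in 13.5% of all 17491 promoters of 300 bases. The capitals in Mmp12, Ctla2b and the end of Trem2 hold the AP-1 letters TGANTCA, found in 7.08% of all promoters, and those of Ctla2b also hold the longer BACH and NRF2 form TGACTCAGC, which contains the AP-1 letters and was in 0.389%. The capitals in Cd38 are the RBPJ letters GTGGGAA (6.08% of promoters), and those in Mertk are the CTCF letters AGGGGGC on the opposite strand (12.7%). A match is a run of letters and does not show that a factor bound there.

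The 2 lists had most of their strong regions in common. Of the Ly6CLo-RM peaks, 25024 of 34293 (73%, interval 72.5% to 73.4%) overlapped a KN-RM peak, and of the KN-RM peaks 25041 of 34293 (73%, 72.5% to 73.5%) overlapped a Ly6CLo-RM peak. The share depended on the score. With each list in 10 classes by score, in the best class it was 99.2% of Ly6CLo-RM peaks and 98.8% of KN-RM peaks, and in the last class 37.7% and 35.1%. The best 1000 peaks of Ly6CLo-RM were found in the whole KN-RM list at 98.8%, and the best 1000 of KN-RM in the whole Ly6CLo-RM list at 98.7%. Cut to their best 1000, the lists still shared 67.9% with each other, so that the order of the strongest regions differed more than their presence.

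**Figure D1:**
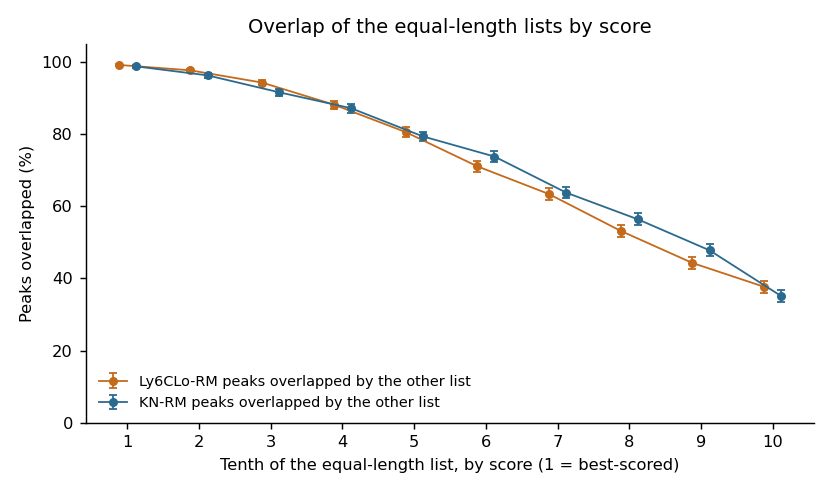
Share of peaks overlapped by the other equal-length list (percent, with 95% Wilson intervals) for each of 10 score classes of the Ly6CLo-RM and KN-RM lists, the best-scored class at the left. Overlap falls with score in both lists, to 37.7% of Ly6CLo-RM peaks and 35.1% of KN-RM peaks in the last class.

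Among 25015 pairs of peaks that were each other's best overlap, the ranks in the 2 lists had a Spearman correlation of 0.745, given as a description across regions. The median difference in rank, Ly6CLo-RM minus KN-RM, was -97 places over all pairs, where a positive value means a lower place in the Ly6CLo-RM list. At Kupffer cell identity genes it was 5018 (39 pairs), at LXR target and lipid handling genes 4729 (61 pairs) and at Trem2-type lipid-associated macrophage genes 2705 (73 pairs). It was -2146 at dendritic cell-linked genes (56 pairs), -1983 at CD11b-high monocyte genes (28 pairs) and -66 at housekeeping genes (52 pairs). Ly6C-low patrolling monocyte genes did not go with the CD11b-high monocyte genes, with a median of 1723. The median was also positive at TGF-beta, BMP and Notch genes, at 1098, and at MHC class II genes, at 638. Among the lists not given here, medians of both signs were found. The regions that both lists held thus differed in place by gene list as well. All 7 shared regions at Id3, an inhibitor of DNA binding and BMP target, and all 4 at its relative Id1 stood lower in Ly6CLo-RM. All 9 at Rbpj and all 5 at Cx3cr1, the fractalkine receptor gene of monocytes, stood higher in Ly6CLo-RM. Rbpj thus went against the positive median of its own list, that of TGF-beta, BMP and Notch genes.

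List-specific regions numbered 1036 of 17146 for Ly6CLo-RM (6.04%, 5.7% to 6.41%) and 1134 of 17146 for KN-RM (6.61%, 6.25% to 7%). The cut to equal length bears on the 2 counts unequally. All 1036 Ly6CLo-RM regions were also absent from the KN-RM list as deposited, which was not cut. Of the 1134 KN-RM regions, 591 (52.1%, 49.2% to 55%) had a Ly6CLo-RM centre within 1000 bp in the list as deposited, with a median rank of 41358 of 54621, and 543 (47.9%) had none. A centre within 1000 bp need not overlap the region itself. Below, a KN-RM region absent from the whole Ly6CLo-RM list is one of the 543.

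Both sets lay away from gene starts. Within 1 kb of a start were 122 of 1036 Ly6CLo-RM regions (11.8%, 9.95% to 13.9%) and 93 of 1134 KN-RM regions (8.2%, 6.74% to 9.94%), against 56.3% and 54.8% of the shared peaks among the 17146 better-scored of each list. These shared peaks were not matched to the regions by score. Over all peaks of the equal-length lists the share was 40.3% in Ly6CLo-RM and 39.4% in KN-RM. The median distance to a start was 12395 bp for Ly6CLo-RM regions and 13168 bp for KN-RM regions, and 453 and 530 bp for the shared peaks. Inside a protein-coding gene lay 54.3% of the Ly6CLo-RM regions and 56.8% of the KN-RM regions, close to the 52.6% and 51.8% of shared peaks.

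The 4 lists that were not used to choose the regions held the 2 sets in opposite patterns. Of the Ly6CLo-RM regions, 76.4% (73.7% to 78.8%) were in the equal-length Ly6CHi-RM list and 61.6% (58.6% to 64.5%) in that of blood monocytes, against 23.1% (20.6% to 25.7%) in KC-N and 17.6% (15.4% to 20%) in KC-H. Of the KN-RM regions, 96.6% (95.4% to 97.5%) were in KC-N and 89.3% (87.4% to 91%) in KC-H, against 28.5% (25.9% to 31.2%) in Ly6CHi-RM and 22.1% (19.8% to 24.6%) in blood monocytes. Peaks that both lists shared, in the same classes of score, were found in each of the 4 lists at 88% to 97% for Ly6CLo-RM and at 87.3% to 98.1% for KN-RM.

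**Figure D2:**
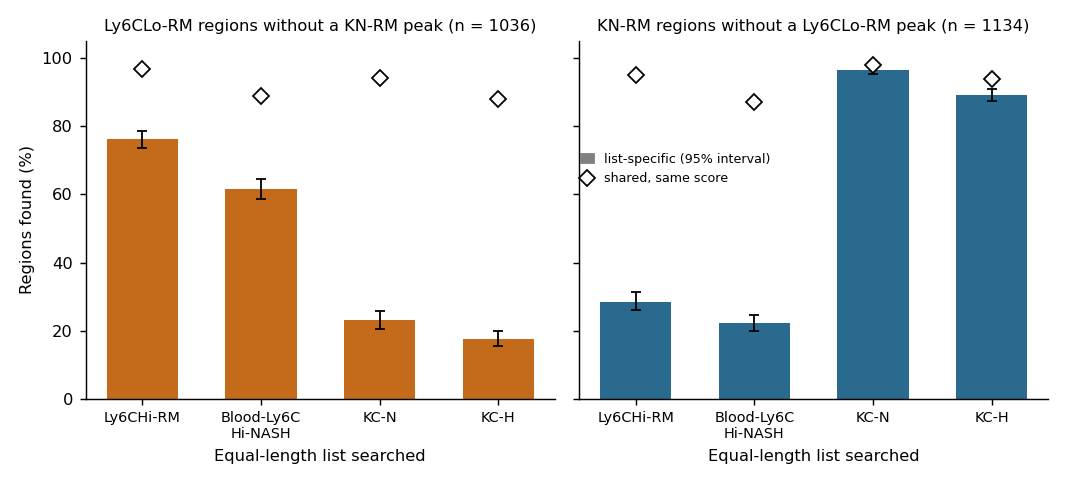
Share of the list-specific regions of Ly6CLo-RM (left) and KN-RM (right) that overlap a peak in each of 4 further equal-length lists (percent, bars with 95% Wilson intervals), with diamonds for peaks that both lists share, in the same score classes. Ly6CLo-RM regions are found most in Ly6CHi-RM, at 76.4%, and KN-RM regions most in KC-N, at 96.6%.

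Taken region by region, 398 Ly6CLo-RM regions (38.4%) and 2 KN-RM regions were in both Ly6C-high lists and in neither Tim4-positive Kupffer list. The opposite pattern, both Tim4-positive Kupffer lists and neither Ly6C-high list, had 6 Ly6CLo-RM regions and 662 KN-RM regions (58.4%, 55.5% to 61.2%). In none of the 4 lists were 207 Ly6CLo-RM regions (20%, 17.7% to 22.5%) and 13 KN-RM regions (1.15%, 0.671% to 1.95%). Of the 1134 KN-RM regions, 1013 were in KC-H and so were also open in Kupffer cells of mice on the control diet. With the 4 lists as deposited, which are longer, 48.6% and 40% of the Ly6CLo-RM regions were in KC-N and KC-H, and 59.5% and 48.9% of the KN-RM regions were in Ly6CHi-RM and blood monocytes, with the order of the 4 lists unchanged in both sets.

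The marker genes of the labels were mixed. At Kupffer cell markers, Clec4f, a lectin gene, had 0 peaks in Ly6CLo-RM and 5 in KN-RM, and Cd5l had 0 and 10. Timd4, which encodes the Tim4 protein absent from the sorted KN-RM cells, had 0 peaks in both lists. It also had 0 peaks in KC-N, although those cells were sorted as Tim4-positive, and 7 in KC-H. Marco had 0 peaks in both Ly6CLo-RM and KN-RM, and Vsig4 had 1 in both. The CD11b gene Itgam had 5 peaks in each list, although of this pair the Ly6CLo-RM cells alone were sorted as CD11b-high. Ccr2 had 1 peak in Ly6CLo-RM and 2 in KN-RM, and the Ly6C gene Ly6c2 had 2 and 3. The 1 KN-RM list-specific region at Ly6c2 had a Ly6CLo-RM centre 33 bp away in the list as deposited. Over the CD11b-high monocyte gene list, 7 genes had more peaks in Ly6CLo-RM, 6 had more in KN-RM and 5 had equal counts. Of these 5 Kupffer cell markers, 2 separated the lists, and the CD11b locus did not by its number of peaks. At Itgam 3 pairs of peaks were shared, and its start had a peak in Ly6CLo-RM, at rank 30190, and none in KN-RM. Itgam had 5 peaks in Ly6CHi-RM, 6 in blood monocytes, 2 in KC-N and 1 in KC-H. Peaks measure chromatin and not the sorted protein. Lists of other cell types had 0 list-specific regions in either direction for B cell, T and NK cell, neutrophil and hepatocyte genes, and 0 of Ly6CLo-RM and 1 of KN-RM for liver endothelial and stellate cell genes. Summed peaks of these 6 lists ranged from 3 to 15 in Ly6CLo-RM and from 2 to 16 in KN-RM. Alb, Apoa1, Lyve1, Lrat, Des, Col1a1, S100a8, Ly6g and Cd3e had no peak in either list. Other markers of these cell types did have peaks. Hnf4a had 5 in Ly6CLo-RM and 2 in KN-RM, Klrb1c 4 and 5, Kdr 3 and 2, Pdgfrb 1 and 4 and Pax5 1 and 0.

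Over all 12812 protein-coding genes with a peak in either list, 799 (6.24%) had at least 1 Ly6CLo-RM region and 809 (6.31%) at least 1 KN-RM region. More peaks were in Ly6CLo-RM at 3783 genes (29.5%), more in KN-RM at 3445 (26.9%), and the median difference was 0. These are the background for the gene lists, which were written with earlier results of these data known and share members.

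**Figure D3:**
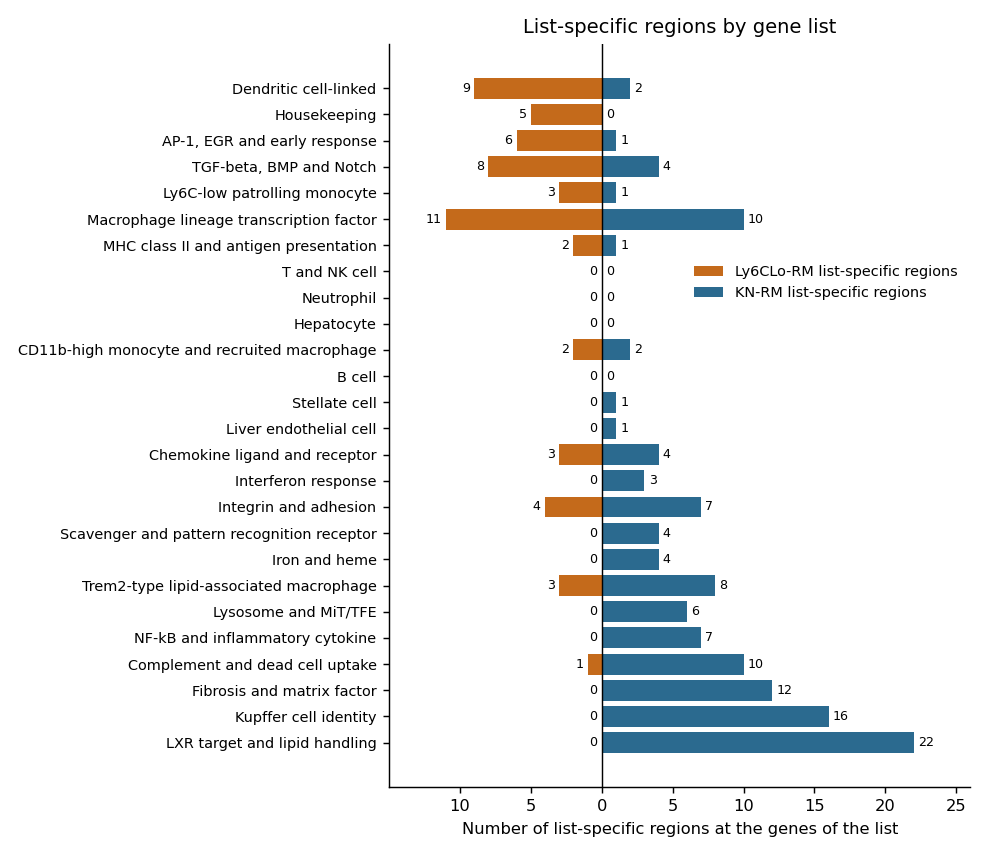
Number of list-specific regions at the genes of each of 26 gene lists, Ly6CLo-RM regions as bars to the left of 0 and KN-RM regions as bars to the right. LXR target and lipid handling genes have 0 Ly6CLo-RM and 22 KN-RM regions, and dendritic cell-linked genes have 9 and 2.

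LXR target and lipid handling genes had the most one-sided balance of the 26 lists. They had 0 list-specific regions of Ly6CLo-RM and 22 of KN-RM, and the KN-RM regions were at 8 of 17 genes with a peak, and 15 of the 22 were absent from the whole Ly6CLo-RM list too. Their peaks numbered 70 in Ly6CLo-RM and 130 in KN-RM, with more in Ly6CLo-RM at 1 gene and more in KN-RM at 13, and a median difference of -3 peaks per gene against 0 over all genes. The excess of KN-RM regions was kept under all 6 alternatives run on it, at 15 to 26 regions.

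Abca1, the cholesterol exporter and a classical LXR target (chr4:53030789-53159988), had 13 peaks in Ly6CLo-RM and 24 in KN-RM, 6 of them list-specific. Of the 6, 5 lay inside the gene between 32.932 and 79.523 kb from its start and 1 lay upstream, at -71.325 kb. None was in Ly6CHi-RM or blood monocytes and all 6 were in KC-N and KC-H. The start of Abca1 itself had a peak in both lists, at rank 4725 in Ly6CLo-RM and 3719 in KN-RM, so the list-specific regions lay away from the promoter. Ly6CHi-RM had 15 Abca1 peaks, blood monocytes 13, and KC-N and KC-H 27 each.

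Mertk (chr2:128698915-128803162), which is both an LXR target and an uptake receptor gene, had 0 peaks in Ly6CLo-RM and 11 in KN-RM, 4 of them list-specific. The Ly6CLo-RM list as deposited held 3. Its KN-RM region over the start, shown above, had rank 4271, was absent from Ly6CHi-RM and blood monocytes and was present in KC-N and KC-H. All 4 regions were in KC-N and KC-H, and 2 of them, 633 bp before the gene and 3603 bp after it, were also in Ly6CHi-RM and blood monocytes. From the region over the start, the nearest Ly6CLo-RM centre in the list as deposited was 587 bp away, and 1 of the 4 regions had none within 1000 bp. Ly6CHi-RM had 4 Mertk peaks and blood monocytes 6, so Ly6CLo-RM had the fewest of the 6 equal-length lists. Cd5l (chr3:87357881-87371074) had 0 peaks in Ly6CLo-RM and 10 in KN-RM, and 3 of its regions, at 23683 bp and 1051 bp upstream of the start and over the start, were list-specific. Scd1, a stearoyl-CoA desaturase gene, had 2 peaks in Ly6CLo-RM and 9 in KN-RM, with 3 KN-RM regions. Nr1h3, the gene of LXR-alpha itself, had 2 peaks in each list.

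**Figure D4:**
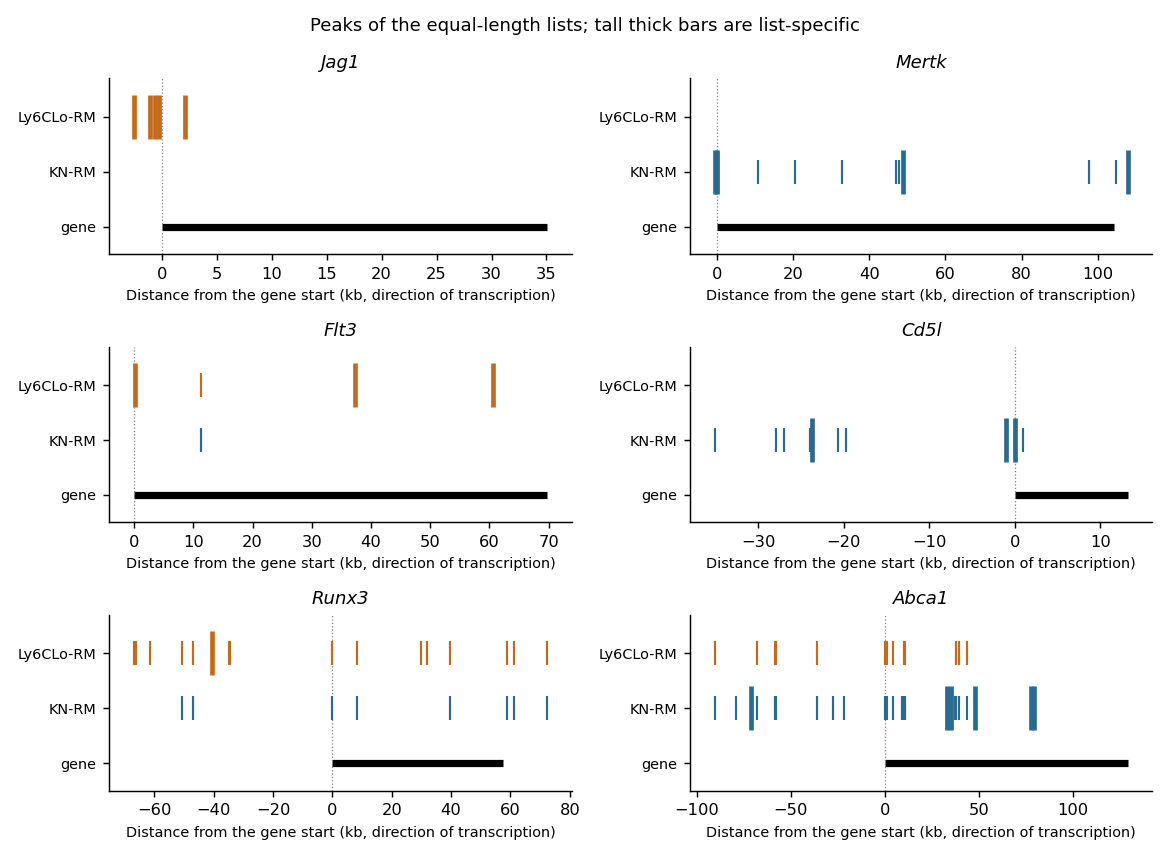
Peaks assigned to Jag1, Flt3, Runx3, Mertk, Cd5l and Abca1 in the equal-length Ly6CLo-RM (upper row) and KN-RM (middle row) lists, by distance from the gene start in kb along the direction of transcription, with the gene as a black bar and list-specific regions as tall thick bars. Mertk and Cd5l have 0 peaks in Ly6CLo-RM, and Jag1 has 0 in KN-RM.

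Kupffer cell identity genes held 0 list-specific regions of Ly6CLo-RM and 16 of KN-RM, at 9 of 20 genes with a peak, and 11 of the 16 were absent from the whole Ly6CLo-RM list. Peaks numbered 42 in Ly6CLo-RM and 87 in KN-RM. Cd38 had 4 KN-RM regions, with 4 peaks in Ly6CLo-RM and 10 in KN-RM, and Cd5l had 3 regions. Slc40a1, the iron exporter ferroportin, had 2 regions, with 0 peaks in Ly6CLo-RM and 2 in KN-RM. The Ly6CLo-RM list as deposited held 3 Slc40a1 peaks, and 1 of the 2 regions had a Ly6CLo-RM centre 27 bp away there. Clec4f had 1 region, 24081 bp from the start. Spic, which encodes a transcription factor of iron-recycling macrophages, had 1 peak in Ly6CLo-RM and 2 in KN-RM, and its single KN-RM region had a Ly6CLo-RM centre 17 bp away in the list as deposited. Id3 had 7 peaks in Ly6CLo-RM and 13 in KN-RM, with no list-specific region.

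At genes for complement and the uptake of dead cells, 1 region was specific to the Ly6CLo-RM list, at the integrin gene Itgav, and 10 to that of KN-RM. Of the 10, 4 were at Mertk and 3 at Lrp1, an endocytic receptor gene with 11 peaks in Ly6CLo-RM and 19 in KN-RM. Stab2, a scavenger receptor gene that is also in the liver endothelial cell list, whose single KN-RM region it holds, had 1 peak in Ly6CLo-RM and 7 in KN-RM, and C1qa, C1qb and C1qc, the subunits of complement C1q, had 1 each in Ly6CLo-RM and 2, 1 and 3 in KN-RM. With the lists as deposited the balance was lost, at 4 regions of each. All 3 KN-RM regions at Lrp1 had a Ly6CLo-RM centre within 52 bp in the list as deposited.

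Fibrosis and matrix factor genes held 0 list-specific regions of Ly6CLo-RM and 12 of KN-RM, with 50 peaks in Ly6CLo-RM and 86 in KN-RM. Igf1, a growth factor gene (chr10:87858265-87937047), had 1 peak in Ly6CLo-RM and 11 in KN-RM, and its 5 KN-RM regions lay upstream of the gene, 15981 to 52349 bp outside its annotated span. Of these 5, 2 were absent from the whole Ly6CLo-RM list and 4 were in Ly6CHi-RM. Pdgfc, a growth factor gene for stellate cells, had 4 peaks in Ly6CLo-RM and 12 in KN-RM, Lgals3 7 and 10, Mmp2 3 and 6 and Arg1 0 and 3.

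Genes of the Trem2-type lipid-associated macrophage, a state described in fatty liver and obese fat tissue, held 3 list-specific regions of Ly6CLo-RM and 8 of KN-RM. Trem2 had 1 peak in Ly6CLo-RM and 3 in KN-RM, and Gpnmb, a lysosomal glycoprotein gene, had 0 and 3. The list-specific KN-RM region over the Trem2 start lay 1051 bp from the nearest Ly6CLo-RM centre. That region was present in all 4 further lists, Ly6CHi-RM and blood monocytes included. Gpnmb peaks numbered 3 for Ly6CHi-RM, 4 for blood monocytes, 2 for KC-N and 0 for KC-H. The Ly6CLo-RM list as deposited held 2 Gpnmb peaks. Plin2, a lipid droplet gene, had 5 peaks in Ly6CLo-RM and 9 in KN-RM. Cd9, a tetraspanin gene, had 15 peaks in Ly6CLo-RM and 13 in KN-RM, and Atf3, a stress-response factor gene, 24 and 15. More peaks were in Ly6CLo-RM at 4 genes and in KN-RM at 13. This balance turned with the lists as deposited, to 14 regions of Ly6CLo-RM and 5 of KN-RM.

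Of the smaller one-sided lists, NF-kB and inflammatory cytokine genes had 0 regions of Ly6CLo-RM and 7 of KN-RM, of which 2 were beside Il12b, an interleukin subunit gene. Their peaks did not lean the same way, with 156 in Ly6CLo-RM and 147 in KN-RM, and Nfkbiz and Nfkbia, feedback genes of NF-kB, had 21 and 15 peaks in Ly6CLo-RM and 13 and 8 in KN-RM. Lysosome and MiT/TFE genes had 0 and 6 regions, iron and heme genes 0 and 4, and scavenger and pattern recognition receptor genes 0 and 4. Interferon response genes had 0 and 3, integrin and adhesion genes 4 and 7, and chemokine genes 3 and 4. For the lists of NF-kB, iron, scavenger receptor, interferon, integrin and chemokine genes, the balance of regions turned toward Ly6CLo-RM with the lists as deposited. Vcam1, an adhesion receptor gene, had 0 peaks in Ly6CLo-RM and 5 in KN-RM, and Itga9, an integrin gene, had 8 and 26, with 5 KN-RM regions.

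Lists with more Ly6CLo-RM regions were fewer. At 6 of 16 dendritic cell-linked genes lay 9 list-specific regions of Ly6CLo-RM, while the 2 of KN-RM were both at Irf8. Peaks numbered 94 in Ly6CLo-RM and 85 in KN-RM, with more in Ly6CLo-RM at 11 genes, more in KN-RM at 4 and a median difference of 1. Housekeeping genes also leaned to Ly6CLo-RM, with 5 regions of Ly6CLo-RM against 0 of KN-RM and 73 peaks against 55, although 15 of the 20 genes had equal counts. The part of such a lean in the other lists was not tested. By overlap of 1 bp in place of the 1000 bp distance, dendritic cell-linked genes had 9 regions of Ly6CLo-RM and 6 of KN-RM.

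Flt3 (chr5:147330741-147400489), which encodes a cytokine receptor of dendritic cell and progenitor development, had 4 peaks in Ly6CLo-RM and 1 in KN-RM. Of the 4, 3 were list-specific, and the one over the gene start had rank 3932 and was among the 5 best-scored Ly6CLo-RM regions on chromosomes 1 to 19 and X. All 3 were in Ly6CHi-RM and in blood monocytes, and blood monocytes had 8 Flt3 peaks, so these regions were open in both Ly6C-high lists too. The one over the gene start was also in KC-N. Zbtb46, which encodes a factor of classical dendritic cells, had 8 peaks in Ly6CLo-RM and 4 in KN-RM. Of its 2 list-specific regions, 1 lay 771 bp inside the upstream end of the gene and 715 bp from a gene start. That region was in none of the 4 other lists. Runx3 had 17 peaks in Ly6CLo-RM and 8 in KN-RM, and 16 in Ly6CHi-RM, 11 in blood monocytes, 3 in KC-N and 2 in the KC-H list, and its first start had a peak in both lists, at rank 4488 in Ly6CLo-RM and 16993 in KN-RM. Irf8, a factor of monocytes and dendritic cells, went the other way, with 5 peaks in Ly6CLo-RM and 15 in KN-RM. The Ly6CLo-RM list as deposited held 12 Irf8 peaks. Both KN-RM regions at Irf8 had a Ly6CLo-RM centre there, 29 and 321 bp away. The first start of Irf8 had a peak in both equal-length lists, at rank 5963 in Ly6CLo-RM and 7392 in KN-RM.

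MHC class II and antigen presentation genes differed in peaks more than in list-specific regions. They had 2 regions of Ly6CLo-RM, at Ciita and H2-DMb2, and 1 of KN-RM, while peaks numbered 93 in Ly6CLo-RM and 77 in KN-RM, with more in Ly6CLo-RM at 10 genes and more in KN-RM at 3. Cd74, the invariant chain gene, had 18 peaks in Ly6CLo-RM and 11 in KN-RM, H2-Aa 8 and 4, H2-Ab1 6 and 4, and Ciita, the master regulator of the class II genes, 6 and 4. Ly6CHi-RM and blood monocytes had 7 and 5 Cd74 peaks, against 11 in KC-N and 12 in the KC-H list. The single Ciita region of Ly6CLo-RM was in KC-N and not in Ly6CHi-RM, blood monocytes or KC-H.

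Early response genes, with those of AP-1 and EGR factors, held 6 list-specific regions of Ly6CLo-RM and 1 of KN-RM, and 220 peaks in Ly6CLo-RM and 196 in KN-RM. The regions were at 5 and 1 of 21 genes with a peak. Over the whole equal-length lists, 1036 of 34293 Ly6CLo-RM peaks and 1134 of 34293 KN-RM peaks were list-specific. Per peak, Ly6CLo-RM regions were thus no more frequent at these genes than over the whole list, and KN-RM regions were less frequent. Fosb, an AP-1 subunit gene, had 22 peaks in Ly6CLo-RM and 13 in KN-RM, and its 2 list-specific regions were in Ly6CHi-RM and in none of the other 3 lists. Atf3 had 24 and 15 peaks, and its 1 region showed the same pattern. Jun had 15 and 8. Nr4a1, which encodes the factor that Ly6C-low monocytes need, had 10 peaks in Ly6CLo-RM and 13 in KN-RM. Ranked by tag count, the list had 4 regions of Ly6CLo-RM and 1 of KN-RM.

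TGF-beta, BMP and Notch genes held 8 list-specific regions of Ly6CLo-RM and 4 of KN-RM, but 2 and 4 when genes were given peaks within 20 kb only. Rbpj, the transcriptional effector of Notch, had 17 peaks in Ly6CLo-RM and 9 in KN-RM, and its 2 regions, 52179 and 64792 bp outside the gene, were in Ly6CHi-RM and in none of the other 3 lists. Jag1, a Notch ligand gene that is not in that list, had 5 peaks in Ly6CLo-RM and 0 in KN-RM. All 5 Jag1 peaks were list-specific, lay within 2508 bp of the gene start and were in Ly6CHi-RM, and 4 were in KC-N. The nearest KN-RM centre to any of them was 166192 bp away.

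Genes of the macrophage lineage transcription factor list had 11 regions of Ly6CLo-RM and 10 of KN-RM. Foxp1 (chr6:98925342-99522746), a forkhead repressor gene of monocyte differentiation, had 33 peaks in Ly6CLo-RM and 8 in KN-RM, the widest gap toward Ly6CLo-RM among the genes named here, with 5 list-specific regions, 4 inside the gene and 1 outside. Foxp1 peaks numbered 26 in Ly6CHi-RM, 28 in blood monocytes, 11 in KC-N and 6 in the KC-H list. Pparg, a lipid-sensing nuclear receptor gene, had 3 peaks in Ly6CLo-RM and 12 in KN-RM, while KC-N and KC-H had 6 each. Cebpb had 20 and 30. Lists of the 2 monocyte states did not lean far in regions. Ly6C-low patrolling monocyte genes had 3 regions of Ly6CLo-RM and 1 of KN-RM, with 91 and 113 peaks. The CD11b-high monocyte list had 2 regions of each group and 43 and 39 peaks.

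**Figure D5:**
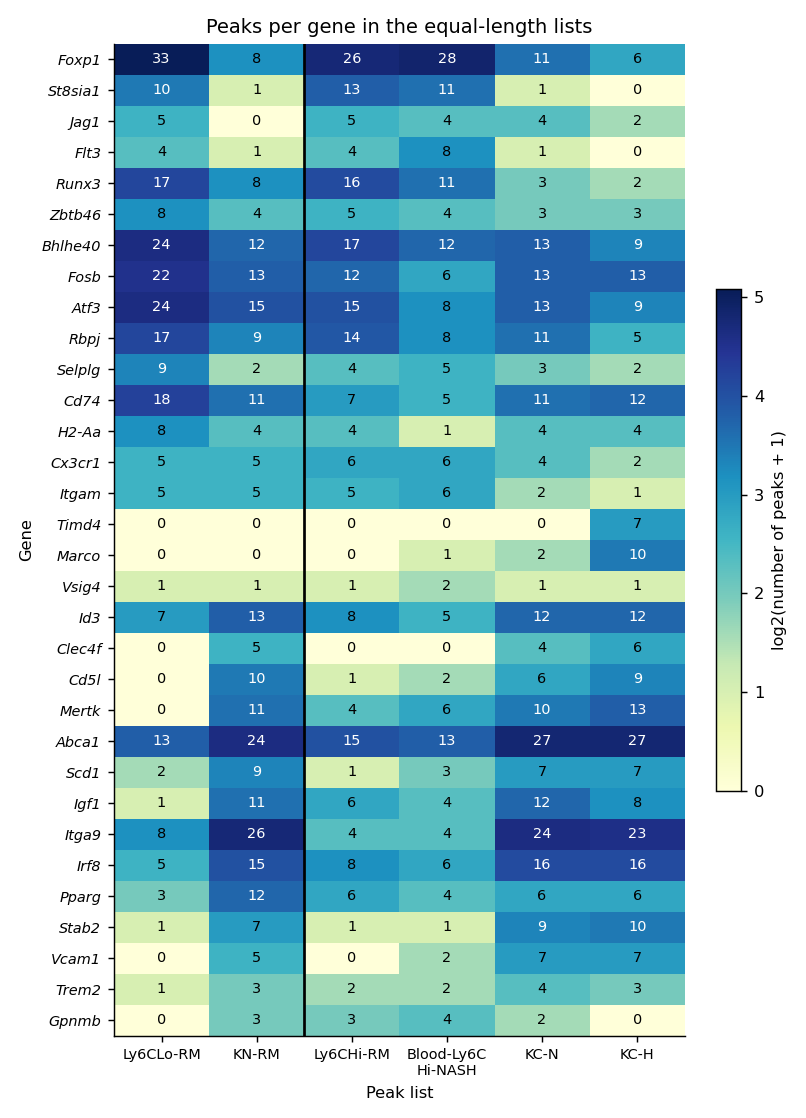
Number of peaks assigned to each of 32 genes in the equal-length Ly6CLo-RM and KN-RM lists (left of the line) and in 4 further equal-length lists, coloured by log2(number + 1). Runx3, St8sia1 and Foxp1 have many peaks in Ly6CLo-RM, Ly6CHi-RM and blood monocytes, and Cd5l, Itga9 and Stab2 in KN-RM, KC-N and KC-H.

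Over all genes, those with the most Ly6CLo-RM regions were Foxp1, St8sia1, Mical3, Jag1 and Tmem131l with 5 each. St8sia1, a sialyltransferase gene, had 10 peaks in Ly6CLo-RM and 1 in KN-RM, and its 5 regions were all in Ly6CHi-RM and none was in KC-H. Bhlhe40, which encodes a transcription factor of macrophage proliferation, had 24 peaks in Ly6CLo-RM and 12 in KN-RM with 4 regions, and Selplg, the P-selectin ligand gene, 9 and 2 with 2 regions. On the KN-RM side Sfi1 led with 9 regions and with 14 peaks in Ly6CLo-RM and 43 in KN-RM, followed by Abca1 and Ano6, a phospholipid scramblase gene, with 6 each. Itga9, Igf1, Pkp4, Zdhhc14 and Defb42 had 5 each. Those of Defb42 all lay outside the gene, 27947 to 33658 bp from its nearest end, and were given to it by that distance only. All 9 Sfi1 regions lay inside the gene, from chr11:3190332 to chr11:3196971, and whether they lie in sequence that is hard to map was not tested.

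Of the 5 best-scored regions of each list, 2 of Ly6CLo-RM and 2 of KN-RM lay within 1 kb of a gene start. Those of Ly6CLo-RM were chr2:148579105-148579305, 93410 bp outside Nxt1, then the start of Elovl7, a region inside Xpnpep1 (chr19:53020143-53020343), the start of Flt3 and a region inside Casp6 (chr3:129904811-129905011), with ranks of 2979 to 3975, all in Ly6CHi-RM and blood monocytes. The regions at Elovl7, Xpnpep1 and Flt3 were also in KC-N, and the one in Xpnpep1 was in KC-H too. Those of KN-RM were inside Pitpnc1 (chr11:107317828-107318028), 25195 bp outside Col19a1 (chr1:24613017-24613217), at the start of 1700003F12Rik, inside Sfi1 and inside Ctla2b, with ranks of 1754 to 2928, all in KC-N. The Ly6CLo-RM list as deposited had a centre 30 bp from the Pitpnc1 region, 1 bp from that near Col19a1, 397 bp from that in Sfi1 and 5 bp from that in Ctla2b. From the region of 1700003F12Rik the nearest was 3791 bp away, so only this one was absent from the whole Ly6CLo-RM list. The Col19a1 region had 3908 normalized tags, where the median of the KN-RM list was 19.6. Whether this region is hard to map was not tested either.

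Promoters were searched for 25 short motifs on both strands in the 300 bases from 250 before to 50 after the start, 1 promoter per gene. A promoter counted as Ly6CLo-RM only where a Ly6CLo-RM peak overlapped it and no KN-RM centre lay within 1000 bp of its middle, which gave 373, with 217 KN-RM only by the same rule and 6827 with peaks of both lists. Median GC content was 61.3% in the Ly6CLo-RM-only promoters, 56.3% in the KN-RM-only ones, 62% in those with both and 56.3% over all 17491, so motif shares are set beside different base compositions.

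The IRF letters GAAANNGAA were in 5.36% of Ly6CLo-RM-only promoters (3.5% to 8.14%) and 13.4% of KN-RM-only promoters (9.47% to 18.5%), against 8.24% of all promoters. The LXR DR4 core TCANNNNAG, a very frequent run of letters, was in 34% (29.4% to 39%) and 47% (40.5% to 53.6%), against 43.3% of all. It was in 34.5% of promoters with peaks of both lists, and the KN-RM-only interval held the share of all promoters. The intervals of the Ly6CLo-RM-only and KN-RM-only classes did not overlap for these 2 motifs of 25. By overlap of 1 bp in place of the 1000 bp distance, the IRF intervals did overlap, at 6.64% of Ly6CLo-RM-only promoters (4.81% to 9.1%) and 11.7% of KN-RM-only promoters (8.69% to 15.6%), and those of the LXR core did not. The NF-kB letters GGGANTTCC were in 3.22% (1.85% to 5.54%) and 0.461% (0.0814% to 2.56%), against 1.86% of all, and those of NRF1, GCGCATGCG, in 0.536% (0.147% to 1.93%) and 3.69% (1.88% to 7.1%), against 2.41%. For AP-1 the shares were 4.83% (3.07% to 7.5%) and 8.29% (5.31% to 12.7%), and for PU.1 14.2% (11% to 18.1%) and 18.4% (13.8% to 24.1%). The intervals overlapped for these 4 and for the remaining motifs. Under the 1 bp rule those of NRF1 did not, at 0.759% of Ly6CLo-RM-only promoters (0.296% to 1.94%) and 4.8% of KN-RM-only promoters (2.98% to 7.66%), so which motifs were separated changed with the rule.

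Those remaining motifs, with their letters and their share of all promoters, were a strong PU.1 form GAGGAAGTG (1.68%, containing the shorter form), a PU.1-IRF composite GGAANTGAA (2.05%), C/EBP TTGCNNAA (10.1%), a C/EBP-AP-1 hybrid TGANGCAA (3.41%), RUNX TGTGGTT (4.84%) and a MiT/TFE E-box TCACGTG (4.44%). They also included the MAF letters TGCTGAC (4.26%), KLF GGGTGTGG (3.63%), EGR GCGTGGG (6.17%), the nuclear receptor letters AGGTCA (14.5%) and SMAD GTCTAGAC (0.212%). The last were a SMAD GC site GGCGCC (15.4%), MEF2 TAAAAATA (2.2%), the letters AGATAA of GATA factors (9.96%), YY1 AAGATGGC (3.22%) and SP1 GGGGCGGGG (15.5%). The RBPJ, CTCF and BACH letters are given with the sequences above. The LXR core, the nuclear receptor letters, GATA and the SMAD GC site were not marked in those sequences.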

How the data were processed

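ATAC-seq was made from 12 libraries in 6 groups of 2, and 1 headerless peak list per group was deposited. Per the submitters' processing notes, the build was mm10 (GRCm38) and the tools named were Bowtie2, HOMER and DESeq2, with no versions or roles. Each peak is 200 bp wide with a tag count signal that the authors normalized and a whole-number score that the authors deposited, both of unstated scale. Read depth is unknown here, since no source used gives it. The lowest peak was about 30 steps of the tag count in Ly6CLo-RM and 29 in KN-RM, where a step is the smallest spacing of the values. Per the labels, lists were named for the irreproducible discovery rate, and how the libraries were combined is not stated.

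Lists were ranked by score and cut to 34293 peaks. Scores and signals ranked peaks within a list only. Sharing meant an overlap of 1 bp or more. A peak belonged to the gene containing its centre, otherwise to the gene with the nearest end within 100 kb, among the protein-coding genes of the RefSeq table (GRCm38.p6). The 26 gene lists, the 25 motifs, the comparison and the 1000 bp distance were chosen with earlier results of these data known. Named genes were the 12 per direction with the most list-specific regions, up to 5 per gene list with the largest difference in peaks, 22 fixed markers and the genes of the 5 best-scored regions per direction. C1qa, C1qb, C1qc, other genes of the printed promoters (H2-DMb2, Mmp12) and markers with no peak fall outside this rule and were named after their values were seen. With no genome, motifs were searched in RefSeq promoters, although a search of the regions had been planned. Intervals are 95% Wilson intervals. Scripts ran under Python 3.11.15 with pandas 2.3.3 and numpy 2.4.6 (figures: matplotlib 3.10.9, intervals: scipy 1.17.1) and were tested on simulated lists. Alternatives changed the overlap, list length, ranking column, distance, gene window and chromosomes.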

Additional observations from a re-analysis of the deposited data

How the results depend on the processing

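No paired analysis was possible because each group had 1 list and no value per library. For the same reason no replicate was left out. The planned motif alternatives (a wider window, and regions over 1 kb from gene ends) were not run, as they need a genome. Of the values that answer a comparison, 56 held under an alternative (a count within 1.5 times, a percent within its interval) and 46 moved, and of the others 970 held, 161 moved and 30 reversed. The causes were not tested, except that longer lists hold more peaks by construction.

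The shared percent of Ly6CLo-RM and KN-RM was 71.7 and 71.7 with overlap of 50% of the shorter peak, 53.4 and 85 with lists as deposited, 74.2 and 74.3 for the best 20000, 74.7 and 74.7 for the best 10000, and 64.4 and 64.4 over 1 kb from gene starts (either gene end had been planned). List-specific regions of Ly6CLo-RM and KN-RM numbered 1371 and 1603 under the 1 bp rule, 7194 and 6841 over all peaks of the equal-length lists, 116 and 177 among the 8573 best-scored peaks, and 3985 and 543 with lists as deposited. Requiring absence from the whole other list left 543 for KN-RM.

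With the other lists as deposited, Ly6CLo-RM regions were found at 92.2% in Ly6CHi-RM, 81.1% in blood monocytes, 48.6% in KC-N and 40% in the KC-H list, and KN-RM regions at 59.5%, 48.9%, 98.8% and 96.3%. Under the 1 bp rule, Ly6CLo-RM regions were at 30.1% in KC-N and 25% in the KC-H list, and KN-RM regions at 25.6% in blood monocytes, 91.5% in KC-N and 85.8% in KC-H. By centres within 1000 bp, 98% of KN-RM regions were in KC-N. Within 500 and 2500 bp of a start lay 8.78% and 21.7% of Ly6CLo-RM regions, 50.9% and 62.6% of its shared peaks, 6% and 18.2% of KN-RM regions, and 49.4% and 61.3% of its shared peaks.

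Differences in list-specific regions are Ly6CLo-RM minus KN-RM. With lists as deposited they were -9 at Kupffer cell identity genes, 21 at dendritic cell-linked genes, 24 at AP-1 genes, 0 at complement genes and -5 at fibrosis genes. Dendritic cell-linked genes had 3 under the 1 bp rule, and AP-1 genes 3 when ranked by tag count. With lists as deposited the difference reversed to 9 at Trem2-type, 8 at NF-kB, 1 at interferon, 3 at scavenger receptor, 4 at chemokine, 8 at integrin, 1 at iron and 5 at endothelial genes, and to 1 at Lrp1. Differences in peaks reversed to 39 at patrolling monocyte, 34 at Trem2-type, 17 at interferon, 2 at complement, 31 at scavenger receptor, 44 at chemokine, 38 at integrin, 8 at iron, 17 at lysosome, 138 at lineage transcription factor, 4 at fibrosis, 11 at endothelial and 2 at stellate cell genes. With a 20 kb window, TGF-beta, BMP and Notch genes reversed to -2 regions and -5 peaks. Lineage transcription factor genes reversed to -1 region with a 1000 kb window, -1 under the 1 bp rule and -2 by tag count. Cebpb reversed to -1 with a 1000 kb window and under the 1 bp rule, and Id2 to -1 under the 1 bp rule.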
